A study of Mus musculus with 48 samples.

Results

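A set of 38 extracellular matrix and integrin genes was followed in α and β cells sorted from mouse islets of Langerhans. The genes were taken by symbol from a table of 42713 genes, and each of the 38 matched 1 row. They comprise 5 laminin α chains, 3 laminin β and γ chains, 6 collagens and linker proteins of the basement membrane, 8 interstitial collagens, 5 other matrix proteins of mesenchymal cells (with the receptor Pdgfrb among them), 2 inhibitors of matrix proteases, and 9 integrin genes and integrin ligands (8 integrin chains and vitronectin). The mice were males aged 6 to 8 weeks. All groups carried the cell reporters ProGcg-Venus and RIP-Cherry, the clock reporter PER2::Luc, and Insulin-rtTA together with TET-DTA. Insulin-rtTA places a doxycycline-dependent activator under the insulin promoter, and TET-DTA makes diphtheria toxin A in the cells where that activator works, so that doxycycline kills β cells. In the DOX groups, mice were given 300 mg of doxycycline in drinking water with 2% sucrose, and in the CTR groups mice drank water with 2% sucrose alone. No group was given doxycycline without the toxin transgene. The time from doxycycline to islet isolation is not given in the sources used here. Mice were fed at night only from 10 days before the experiment, under 12 h of light and 12 h of dark, with inverted cycles for 2 weeks in part of the animals. Islets were digested with collagenase, dissociated with trypsin and sorted for the Venus (α) and Cherry (β) reporters every 4 h, at zeitgeber times (ZT, hours after lights on) 0, 4, 8, 12, 16 and 20. Each cell type, treatment and time has 2 libraries, which makes 12 DOX β, 12 CTR β, 12 DOX α and 12 CTR α libraries.

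The extracellular matrix has 2 main forms in the islet. The basement membrane is a thin sheet of laminins (trimers of an α, a β and a γ chain), type IV collagen, nidogens and perlecan that lies around capillaries and between islet and exocrine tissue. The interstitial matrix is made of fibrillar and beaded collagens, fibronectin and small proteoglycans, and comes mainly from fibroblasts, stellate cells and pericytes. In mouse islets, β cells have been described as making little basement membrane of their own and as touching that of the vessels. Integrins are receptors made of 1 α and 1 β chain that bind these proteins and link them to the actin skeleton through talin, vinculin and focal adhesion kinase.

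The libraries fall into 2 sequencing runs, which the dates in their titles give. From ZT4 on, replicate 1 of every group belongs to the earlier run (20 libraries with 16.1 to 28.6 M estimated counts). Replicate 2, and at ZT0 both replicates, belong to the later run (28 libraries with 37.4 to 69.9 M). Whether duplicates came from separate animals is not stated in the labels, so p-values measure the spread between these libraries only. Tests between cell types took α and β libraries as independent. Whether α and β libraries of the same time, treatment and number came from the same islets was not checked. Levels are given as CPM (counts per M counts of the TMM-scaled library), and differences as log2 fold changes from edgeR's quasi-likelihood test with time and run as terms. A gene was called higher or lower where the Benjamini-Hochberg adjusted p over all genes tested was under 0.05. A count of 0 allows up to 3 counts, which is 0.105 to 0.186 CPM in the earlier run and 0.0429 to 0.0802 CPM in the later run, for counting error only and as if each read or pair added 1 to the count. The sorts carried their defining transcripts: Ins2 ran from 146198 to 259844 CPM in DOX β and from 156749 to 293549 CPM in CTR β libraries, and Gcg from 222532 to 454750 CPM in DOX α and from 244507 to 387234 CPM in CTR α libraries. Markers of other cells were present too. The summed CPM of 10 stellate cell, pericyte and fibroblast markers (Pdgfra, Acta2, Rgs5, Cspg4, Des, Thy1, Cygb, Tagln, Mgp, Fbln1) ran from 0.749 to 40.5, with a median of 5.004, in DOX β libraries and from 1.66 to 5.89, with a median of 3.51, in CTR β libraries. That of 10 macrophage and dendritic cell markers ran from 108 to 1335, with a median of 576, in DOX β and from 46.9 to 305, with a median of 150, in CTR β libraries. In α cells the medians were 6.80 in DOX and 6.16 in CTR libraries for the stellate cell, pericyte and fibroblast markers. For the macrophage and dendritic cell markers they were 76.7 in DOX α and 68.7 in CTR α libraries. The summed CPM of 10 endothelial markers had medians of 11.5 in DOX β, 9.52 in CTR β, 19.0 in DOX α and 18.5 in CTR α libraries. That of 8 acinar cell markers ran from 7.63 to 4116 in DOX β, from 2.83 to 221 in CTR β, from 5.19 to 6129 in DOX α and from 5.52 to 813 in CTR α libraries. That of 3 δ and PP cell markers ran from 564 to 1520 in DOX β, from 309 to 1012 in CTR β, from 22129 to 41251 in DOX α and from 14822 to 35831 in CTR α libraries. The part of these cells in the values that follow was not tested. In such bulk samples, fewer cells of a type and less RNA per cell cannot be told apart.

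The share of matrix and integrin genes that differed between the 2 cell types in control mice was not above that of all genes. In CTR β against CTR α libraries, 33 of the 38 genes were tested, 6 were higher and 15 were lower in β cells (21 called), with a median log2 difference of -0.82, where 71.4% of the 14945 genes tested were called, 34.2% higher and 37.3% lower, and the median of all genes was -0.03. Of 7 integrin chains tested 4 were higher and 2 lower in β cells. Itgav, the αv chain that binds vitronectin and fibronectin, ran from 156 to 339 CPM (median 212) in CTR β and from 55.8 to 88.1 CPM (median 73.1) in CTR α libraries, a difference of 1.58 ± 0.09 (SE, edgeR adjusted p = 1.73e-12). Its partner Itgb5 differed the same way, by 0.79 ± 0.05 (edgeR adjusted p = 5.12e-12). The groups did not overlap for either gene. Itga6, a laminin receptor chain, was also higher in β cells, by 1.95 ± 0.13, with 19.0 to 43.3 CPM in CTR β and 4.46 to 11.3 CPM in CTR α libraries. Itgb1, the β chain shared by most matrix-binding integrins, was lower in β cells, with 154 to 218 CPM (median 200) in CTR β and 262 to 373 CPM (median 349) in CTR α libraries, a difference of -0.82 ± 0.05 (edgeR adjusted p = 1.57e-12). Per kb of transcript, which allows genes to be compared, Itgb1 averaged 47.5 CPM per kb in CTR β and 83.3 CPM per kb in CTR α libraries, the highest level of the 38 genes in both. Itgav followed in CTR β libraries with 20.8 CPM per kb and Itga3, another laminin receptor chain, in CTR α libraries with 11.4 CPM per kb.

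Of the laminin chains, 4 of 7 tested were lower in β cells and none was higher, and of the basement membrane genes 3 of 6 were lower and 1 was higher. Lama5, the α chain of the laminins of mature vessel walls, ran from 0.940 to 2.12 CPM in CTR β and from 10.97 to 55.3 CPM in CTR α libraries (difference -4.01 ± 0.19, edgeR adjusted p = 5.04e-14). Lama2, the α chain of muscle and nerve laminins, differed by -5.61 ± 0.50 and Nid1, the nidogen that ties laminin to type IV collagen, by -5.11 ± 0.43. Nid1 had 0.106 to 5.19 CPM in CTR β and 20.4 to 62.1 CPM in CTR α libraries. Lamc1, the γ chain shared by most laminins, differed less, by -0.95 ± 0.08, with medians of 31.8 CPM in CTR β and 61.3 CPM in CTR α libraries. The pair Col4a1 and Col4a2, the 2 chains of the common type IV collagen, went opposite ways, with Col4a1 higher in β cells by 1.73 ± 0.18 and Col4a2 lower (-1.84 ± 0.34). The 2 genes start head to head on chromosome 8 of GRCm38, with 5′ ends at 11312826 (Col4a1, minus strand) and 11312805 (Col4a2, plus strand), and share 22 exonic bases. Of the interstitial collagens, Col1a2, a chain of type I collagen, differed most, by -4.46 ± 0.44, with 0.0706 to 9.95 CPM in CTR β and 28.4 to 60.1 CPM in CTR α libraries. Its partner chain Col1a1 differed by -1.36 ± 0.56 (edgeR adjusted p = 0.0346), and the laminin chain Lamb2 by -0.83 ± 0.34 (edgeR adjusted p = 0.0344). Within the earlier run alone both had the opposite sign and were not called, at 0.12 for Col1a1 and 0.27 for Lamb2, and over both runs Col1a1 lost its call when any 1 of 11 of the 24 libraries was left out, and Lamb2 when any 1 of 10 was. The others called lower in β cells were Itga3, Sparc, Hspg2, Pdgfrb, Timp3 and Col5a1, and those called higher were Col6a3, a chain of the beaded type VI collagen, by 2.36 ± 0.53, and Itga5, the fibronectin receptor chain, by 1.76 ± 0.69. The call of Itga5 was lost when any 1 of 3 libraries was left out, at an edgeR adjusted p of 0.0502 to 0.0556.

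Matrix and integrin genes differed in how far libraries of the same kind lay apart. The spread of a gene was taken as the residual SD of log2 CPM around time, run and treatment within a cell type (16 degrees of freedom). A gene was set apart as low under a mean of 1 CPM, and was otherwise called wide above an SD of 1, steady under 0.5 and intermediate between these bounds. In β cells 17 of the 38 were wide, 4 intermediate, 7 steady and 10 low. Among all 13120 genes with at least 1 CPM in β cells, 2.72% were wide and 89.3% were steady, and the median SD was 0.21. The wide genes held all 8 interstitial collagens, 4 of 6 basement membrane genes (Col4a2, Col18a1, Nid1, Hspg2), 3 of 5 mesenchymal matrix genes (Fn1, Sparc, Dcn), Timp3 and Itga5. The steady genes were Itgb1, Itgb5, Itga3, Lamc1, Itgav, Itga6 and Lama5. Col3a1 had the largest SD, 2.18, and Itgb1 the smallest, 0.08. Just above the upper bound lay Itga5 with 1.01 and Hspg2 with 1.09, and just under it Lamb2 with 0.76. Near the lower bound lay Lama5 with 0.39 inside, and Col4a1 with 0.50 and Itga1 with 0.53 outside.

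In α cells the spread was smaller for several of the same genes. There, 7 genes were wide (Col1a1, Col3a1, Col5a1, Col6a1, Col6a3, Fn1, Dcn), 9 intermediate, 9 steady and 13 low. Col1a2 had an SD of 1.83 in β cells and 0.23 in α cells, and Nid1 one of 1.69 in β cells and 0.44 in α cells, at α cell means of 46.3 CPM for Col1a2 and 40.1 CPM for Nid1. Col1a1 was wide in both, with an SD of 1.80 in β cells and 1.35 in α cells, as was Col3a1, with 2.18 in β cells and 1.33 in α cells. The 2 chains of type I collagen, which assemble with each other, had alike spreads in the β cell sort and unlike spreads in the α cell sort.

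**Figure D1:**
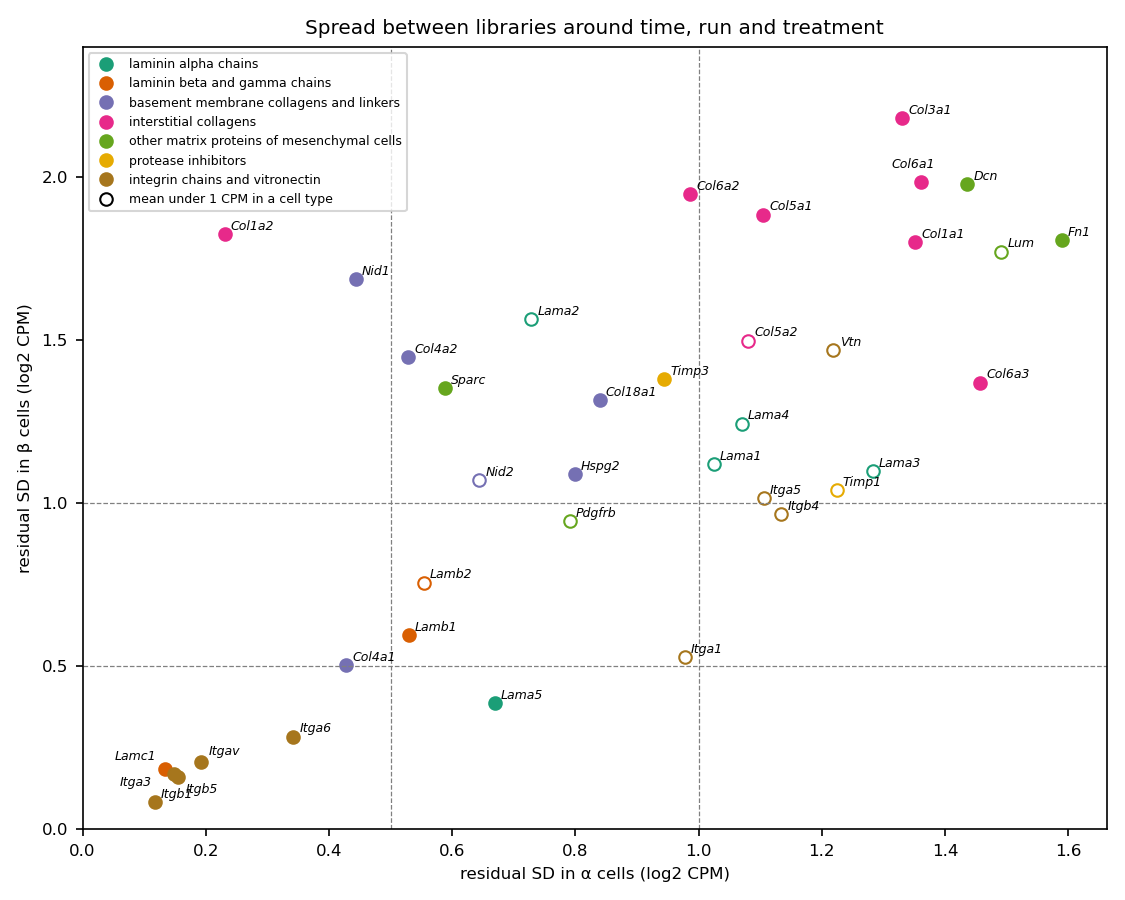
Residual SD of log2 CPM around time, run and treatment in α cells (horizontal axis) and β cells (vertical axis) for the 38 genes, coloured by role, with dashed lines at 0.5 and 1 and open circles for genes under a mean of 1 CPM in either cell type. Itgb1, Itgb5, Itga3, Itgav, Itga6 and Lamc1 lie at the lower left, most interstitial collagens at the upper right, and Col1a2 and Nid1 at the upper left, steady in α cells and wide in β cells.

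Single libraries stood out among the wide genes, which were picked by their spread over these same libraries. A library with extreme values helps to make a gene wide, so the counts of extremes below are no independent result. Shares over all genes were not computed for them. The DOX β library of ZT4 replicate 1 (earlier run) was the highest of the 24 β libraries for 14 of the 17 wide genes, with 96.6 CPM of Col1a1, 94.4 CPM of Col1a2 and 162 CPM of Col3a1. The other DOX β library of the same time, from the later run, had 0.166, 0.250 and 0.416 CPM of these genes. The CTR β library of ZT12 replicate 2 was the lowest for 9 of the 17. The summed CPM of the 17 wide genes was 636 in the first of these libraries, 270 in DOX ZT20 replicate 1 and 146 in DOX ZT16 replicate 2, the highest 3 of the 24, and the same libraries had the 3 highest sums of the stellate cell, pericyte and fibroblast markers, 40.5, 18.4 and 8.11 CPM. The next sum of these markers was close to the last, 7.46 CPM in DOX ZT8 replicate 1. DOX ZT16 replicate 2 also had the highest sum of macrophage and dendritic cell markers of the 24, 1335 CPM, and 470 CPM of acinar cell markers. The part of these cell types in the values of the wide genes was not tested. In α cells, the CTR library of ZT4 replicate 2 was the highest for 6 of the 7 wide genes.

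With doxycycline, 23 of these genes were called in β cells and none in α cells. In DOX against CTR β libraries, 35 of the 38 genes were tested (Itgb4, Lama1 and Vtn were under the count filter), and 21 were higher and 2 lower, with a median log2 fold change of 1.39. Of all 15188 genes tested, 46.9% were called, 23.8% higher and 23.1% lower, with a median of -0.01. The called genes came from all 7 roles but the protease inhibitors: 2 of 4 laminin α chains, 1 of 3 β and γ chains and 5 of 6 basement membrane genes were higher, with Col4a1 lower, as were 7 of 8 interstitial collagens, 2 of 5 mesenchymal matrix genes and 4 of 7 integrin chains, with Itgav lower. By spread, 13 of 17 wide genes were higher, and of the 7 steady genes 3 were higher (Lama5, Itgb1, Itgb5) and 1 lower (Itgav). Without DOX ZT4 replicate 1 the counts were 16 higher and 2 lower, and without DOX ZT16 replicate 2 they were 15 higher and 2 lower.

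**Figure D2:**
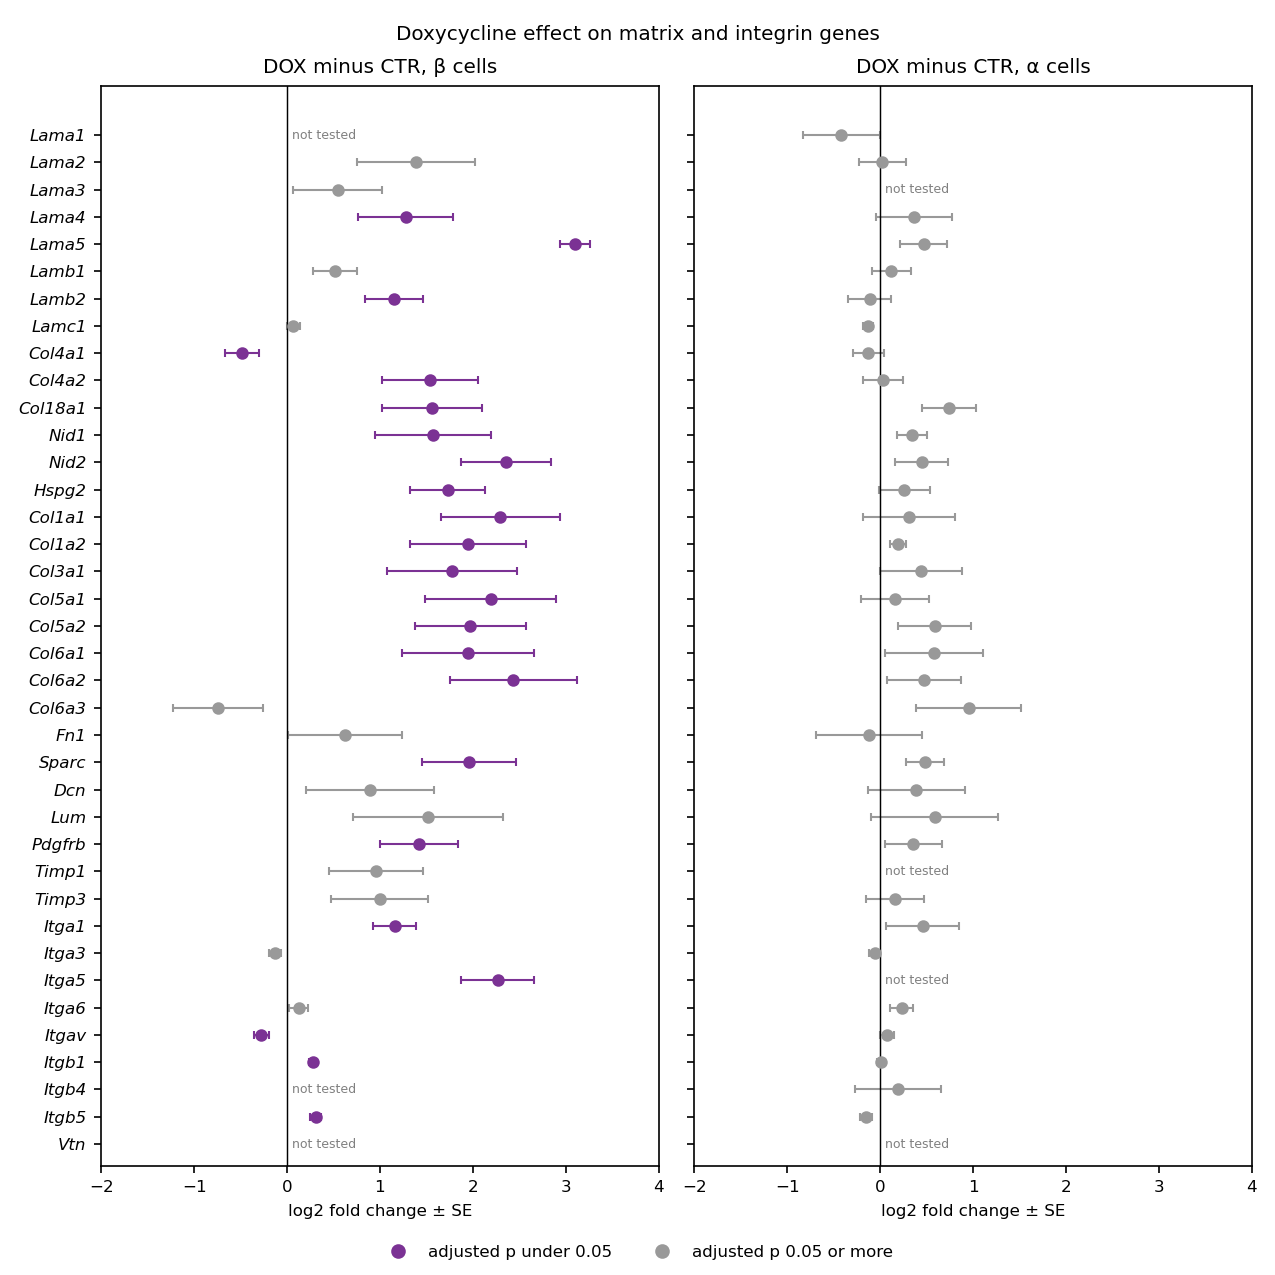
Log2 fold change with its SE, DOX minus CTR, for each of the 38 genes in β cells (left) and α cells (right), in purple where the adjusted p was under 0.05. In β cells Lama5 lies at 3.10 with a short error bar, the collagens lie near 2 with long ones, and in α cells no gene was called.

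Lama5 had the largest log2 fold change of the 35 genes tested and no overlap between treatments. At ZT0, DOX β libraries had 10.8 and 17.2 CPM, against 2.12 and 1.01 CPM in CTR β libraries. At ZT4 the values were 8.09 and 20.04 CPM in DOX β and 1.07 and 1.18 CPM in CTR β libraries. At ZT8 they were 10.3 and 12.4 CPM in DOX β and 1.31 and 2.11 CPM in CTR β libraries. All 12 DOX β libraries, from 5.66 to 20.04 CPM (median 10.7), lay above all 12 CTR β libraries, from 0.940 to 2.12 CPM (median 1.21). The log2 fold change was 3.10 ± 0.16 (edgeR adjusted p = 4.08e-11), 2.79 in the earlier and 3.30 in the later run, each called alone. The DOX β values lay under the median of CTR α libraries, 17.5 CPM, in all but 1 library. In α cells Lama5 ran from 11.4 to 89.0 CPM (median 25.6) in DOX and from 10.97 to 55.3 CPM (median 17.5) in CTR libraries, groups that overlapped (0.47 ± 0.25, edgeR adjusted p = 0.708), and the 2 effects differed by 2.64 ± 0.32 (edgeR adjusted p = 1.06e-07). Transcripts typical of α cells were also higher in the β cell sort with doxycycline, Ttr by 2.05 ± 0.12, Irx2 by 1.39 ± 0.26 and Gcg by 0.50 ± 0.19. Ttr had a median of 1821 CPM in DOX β and 438 CPM in CTR β libraries, against 7357 CPM in DOX α and 7084 CPM in CTR α libraries. Gcg had a median of 213 CPM in DOX β and 171 CPM in CTR β libraries, against 321476 CPM in DOX α and 292657 CPM in CTR α libraries. Their part in the Lama5 values was not tested.

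Itgb1 rose by a small and even amount. DOX β libraries ran from 205 to 261 CPM (median 236) and CTR β libraries from 154 to 218 CPM (median 200), a log2 fold change of 0.28 ± 0.04 (edgeR adjusted p = 2.06e-05). Of the 12 DOX β libraries 11 lay above every CTR β library, and DOX was higher in 12 of 12 comparisons of libraries of the same time, replicate number and run. The numbers were not taken to mark paired samples. The change was 0.29 in each run. Itgb5, which pairs with the αv chain, had 40.9 to 73.1 CPM (median 50.8) in DOX β and 38.5 to 46.1 CPM (median 43.0) in CTR β libraries, with 10 of 12 DOX libraries above all CTR ones (0.31 ± 0.06, edgeR adjusted p = 0.000465). Taken alone, the earlier run did not call it (0.23, edgeR adjusted p = 0.122). Itgav itself fell, with 134 to 215 CPM (median 186) in DOX β and 156 to 339 CPM (median 212) in CTR β libraries, groups that overlapped over most of their range (-0.28 ± 0.08, edgeR adjusted p = 0.00763). The highest 2 CTR β values of Itgav, 339 and 315 CPM, were those of ZT4. Within the runs it was called in the later (-0.36, edgeR adjusted p = 0.0231) and not in the earlier (-0.14, edgeR adjusted p = 0.45).

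The promoters of the 3 steady genes that rose, Lama5, Itgb1 and Itgb5, are shown as the sequence at which their transcripts begin (RefSeq, GRCm38.p6, the 250 bases before the start, 5′ to 3′ in the direction of transcription). They lie at chr2:180225860-180226109 on the minus strand, chr8:128685404-128685653 on the plus strand and chr16:33829415-33829664 on the plus strand. Capitals mark matches on either strand to the 4 motifs searched, the AP-1 site TGANTCA, the TEAD site GGAATG, the GC box GGGCGG and the CCAAT box CCAAT.
Lama5: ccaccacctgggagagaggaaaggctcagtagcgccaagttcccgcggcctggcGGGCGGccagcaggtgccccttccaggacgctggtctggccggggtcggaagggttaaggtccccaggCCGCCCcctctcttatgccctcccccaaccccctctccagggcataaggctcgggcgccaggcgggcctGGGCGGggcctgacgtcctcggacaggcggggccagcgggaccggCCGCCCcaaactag
Itgb1: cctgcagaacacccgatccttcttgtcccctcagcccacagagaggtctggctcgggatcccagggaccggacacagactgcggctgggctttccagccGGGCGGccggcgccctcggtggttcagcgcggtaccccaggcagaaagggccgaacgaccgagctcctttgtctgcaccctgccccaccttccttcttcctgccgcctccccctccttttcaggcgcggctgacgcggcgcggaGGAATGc
Itgb5: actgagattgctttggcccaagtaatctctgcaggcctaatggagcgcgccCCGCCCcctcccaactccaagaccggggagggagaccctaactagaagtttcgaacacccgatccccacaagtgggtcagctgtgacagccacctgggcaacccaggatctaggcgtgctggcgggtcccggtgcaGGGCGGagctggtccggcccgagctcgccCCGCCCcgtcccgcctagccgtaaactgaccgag
Lama5 held 4 GC boxes, Itgb5 held 3, and Itgb1 held 1 GC box and 1 TEAD match, the last of these next to its start. None of the 3 held the AP-1 or the CCAAT letters in this window. Of 32851 promoters of that length, 32.74% held a GC box, 12.64% a TEAD match, 6.749% an AP-1 match and 33.85% a CCAAT box. Of the 38 genes 25 had a promoter in the table, 15 of them with a GC box, 7 with a TEAD match, 8 with a CCAAT box and 1 with an AP-1 match. These matches are letters in a window and no evidence of binding.

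The other integrin chains fell into a pair of groups. Itga5, the fibronectin receptor chain, and Itga1, a collagen receptor chain, both pair with the β chain of Itgb1 and were low in CTR β libraries. Itga5 had 0.362 to 4.76 CPM (median 1.53) in DOX β and 0.0344 to 0.937 CPM (median 0.311) in CTR β libraries, with 10 of 12 DOX libraries above all CTR ones (2.27 ± 0.39, edgeR adjusted p = 9.01e-05). Itga1 had 0.684 to 4.10 CPM (median 1.37) in DOX β and 0.358 to 0.732 CPM (median 0.636) in CTR β libraries, again with 10 of 12 DOX libraries above all CTR ones (1.16 ± 0.23, edgeR adjusted p = 0.000348). Both were called in each run alone. Pelo lies inside Itga1 on the same strand without a shared exonic base, and averaged 23.7 CPM in DOX β and 17.1 CPM in CTR β libraries. A further gene of that strand over Itga1, AC175538.2, averaged 10.3 CPM in DOX β and 7.22 CPM in CTR β libraries. Its exonic overlap with Itga1 was not computed, and its share in the counts of Itga1 was not tested. The laminin receptor chains Itga3 and Itga6 were steady and uncalled. Itga3 had a median of 47.6 CPM in DOX β and 51.0 CPM in CTR β libraries (-0.13 ± 0.07), and Itga6 one of 35.0 CPM in DOX β and 30.4 CPM in CTR β libraries (0.12 ± 0.10). Itgb4, the partner of the Itga6 chain in hemidesmosomes, and vitronectin (Vtn) stayed at or under 2.87 CPM in all 24 β libraries and were not tested.

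**Figure D3:**
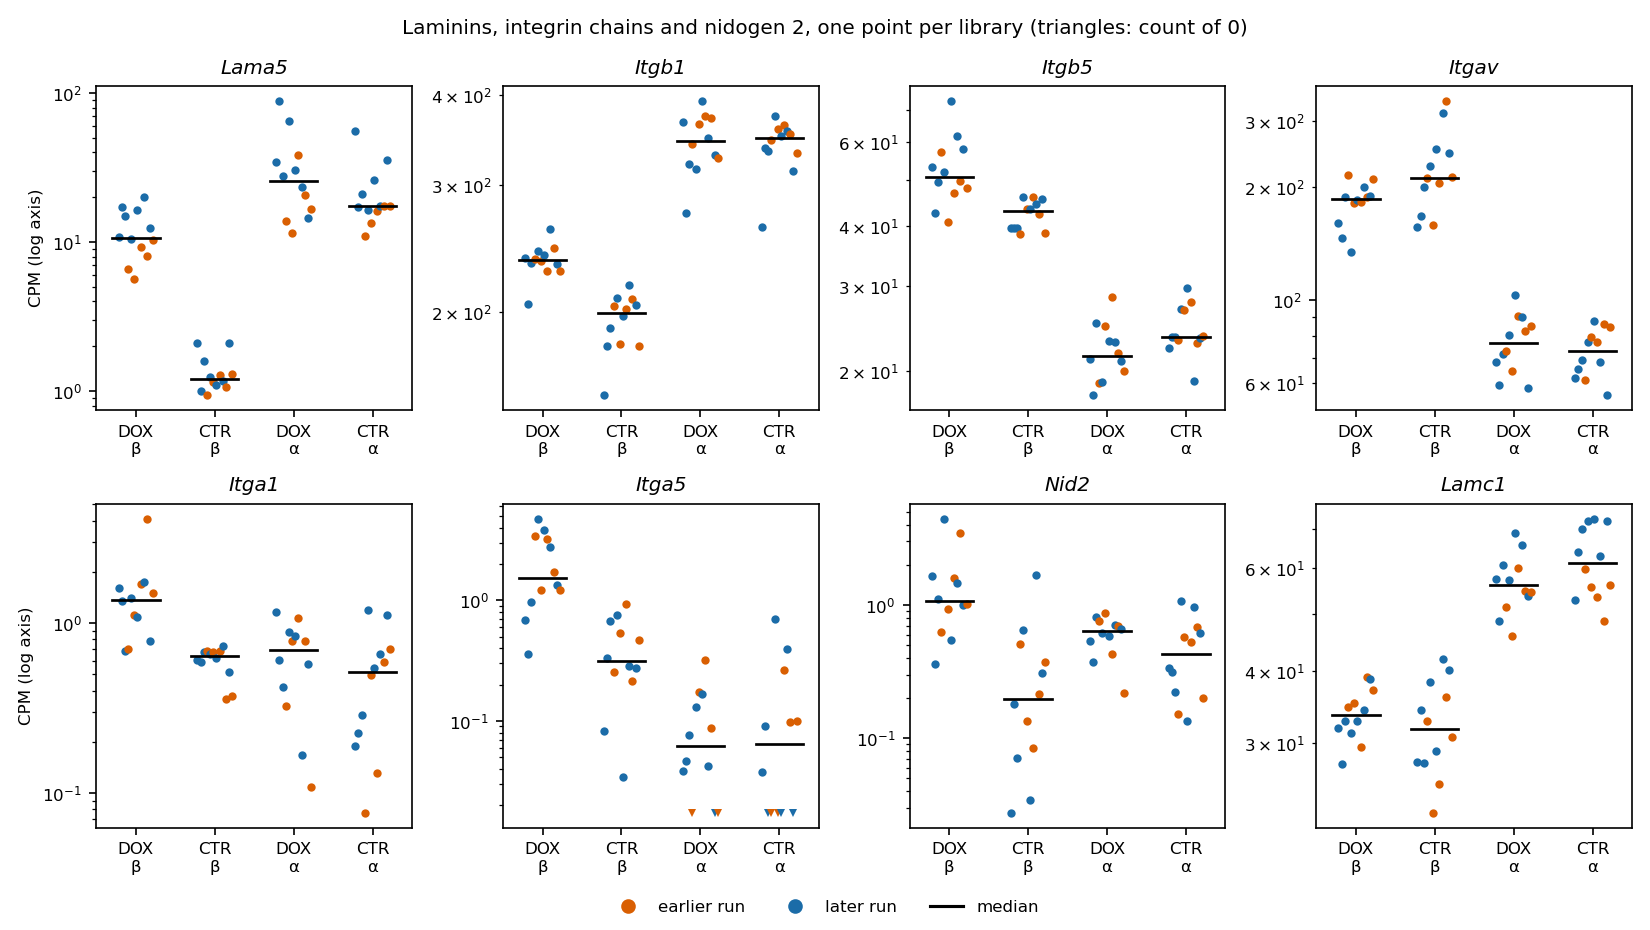
CPM on a log axis in every library of DOX β, CTR β, DOX α and CTR α cells for Lama5, Itgb1, Itgb5, Itgav, Itga1, Itga5, Nid2 and Lamc1, with the median as a bar, the earlier run in orange and the later in blue, and a count of 0 as a triangle at the base. For Lama5 the DOX β points, 5.66 to 20.04 CPM, all lie above the CTR β points, and both runs show it.

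Among the remaining laminin genes, the β and γ chains, which could join the product of Lama5 in a trimer, had smaller log2 fold changes. Lamc1 had 27.7 to 39.0 CPM (median 33.5) in DOX β and 22.8 to 41.8 CPM (median 31.8) in CTR β libraries (0.07 ± 0.07, edgeR adjusted p = 0.464). Lamb1, a β chain, had medians of 1.85 CPM in DOX β and 1.59 CPM in CTR β libraries and missed the threshold (0.52 ± 0.24, edgeR adjusted p = 0.0792). Lamb2, the β chain of synapses and kidney, was higher, with 0.410 to 3.01 CPM (median 0.854) in DOX β and 0.172 to 1.53 CPM (median 0.475) in CTR β libraries (1.15 ± 0.31, edgeR adjusted p = 0.00495). Lama4, the α chain of young vessel walls, had 0 to 2.30 CPM in DOX β and 0.0675 to 0.788 CPM in CTR β libraries (1.28 ± 0.51, edgeR adjusted p = 0.0452), and lost the call when any 1 of 16 of the 24 libraries was left out, at an edgeR adjusted p of up to 0.129. Lama2 (1.39 ± 0.64) and Lama3 (0.54 ± 0.48) were not called. Lama1, the α chain of early embryos, was under the filter over both runs. Its earlier-run libraries had 0.835 to 1.60 CPM in DOX β and 0 to 0.426 CPM in CTR β, groups that did not overlap (3.45 ± 0.69, edgeR adjusted p = 0.00536). In that run Lama1 passed the count filter through its DOX libraries, with 18 to 36 counts in DOX β and 0 to 10 in CTR β. The test and the lack of overlap are thus no support on their own. Its later-run libraries had 0 to 0.261 CPM in DOX β and 0 to 0.0682 CPM in CTR β.

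Of the basement membrane genes, Nid2 had the largest log2 fold change over both runs. In the earlier run it passed the count filter through its DOX libraries, with 16 to 84 counts in DOX β and 2 to 12 in CTR β. Its call in that run is thus no support on its own. In the later run it had 20 to 260 counts in DOX β and 2 to 106 in CTR β. This second nidogen had 0.362 to 4.45 CPM (median 1.07) in DOX β and 0.0275 to 1.69 CPM (median 0.198) in CTR β libraries (2.36 ± 0.48, edgeR adjusted p = 0.000472), with log2 fold changes of 2.43 in the earlier and 2.54 in the later run. Its exons overlap those of Rtraf on the other strand by 437 bases, 8.446% of its exonic length, and the library kit does not mark strand. Rtraf averaged 33.3 CPM in DOX β and 28.5 CPM in CTR β libraries, and its share in the counts of Nid2 was not tested. Hspg2, which encodes perlecan, had 0.934 to 14.6 CPM (median 3.24) in DOX β and 0.170 to 4.84 CPM (median 0.797) in CTR β libraries, with 3 DOX libraries above all CTR ones (1.73 ± 0.40, edgeR adjusted p = 0.00144). Col18a1, the source of endostatin, had 0.468 to 15.1 CPM (median 3.74) in DOX β and 0.247 to 8.34 CPM (median 0.754) in CTR β libraries (1.56 ± 0.54, edgeR adjusted p = 0.0212), with log2 fold changes of 3.03 in the earlier run and an uncalled 0.41 in the later. Nid1 had 0.166 to 17.2 CPM (median 2.88) in DOX β and 0.106 to 5.19 CPM (median 0.874) in CTR β libraries (1.57 ± 0.62, edgeR adjusted p = 0.0442), with 2.59 in the earlier run and an uncalled 0.87 in the later. The Nid1 call was lost when any 1 of 16 of the 24 libraries was left out.

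The 2 chains of type IV collagen again moved apart over both runs. Taken alone, the earlier run called Col4a2 and not Col4a1, and the later run called Col4a1 and not Col4a2. Col4a1 fell, with 7.75 to 60.0 CPM (median 18.8) in DOX β and 18.5 to 50.1 CPM (median 23.4) in CTR β libraries, and 6 DOX libraries lay under all CTR ones (-0.48 ± 0.18, edgeR adjusted p = 0.0359). The call was lost when any 1 of 10 of the 24 libraries was left out, at an edgeR adjusted p of up to 0.0767. The highest DOX value, 60.0 CPM, was that of ZT4 replicate 1, the library with the highest collagen values. In the earlier run the Col4a1 medians were 21.3 CPM in DOX β and 23.9 CPM in CTR β libraries. In the later run they were 16.8 CPM in DOX β and 22.9 CPM in CTR β libraries. Col4a2 rose, with 0.108 to 25.9 CPM (median 2.30) in DOX β and 0.141 to 3.10 CPM (median 0.825) in CTR β libraries (1.54 ± 0.52, edgeR adjusted p = 0.0194). It was uncalled without DOX ZT4 replicate 1 (1.37) and without DOX ZT16 replicate 2 (1.34). Per kb, Col4a1 averaged 2.79 CPM in DOX β and 3.84 CPM in CTR β libraries, and Col4a2 0.703 CPM in DOX β and 0.161 CPM in CTR β libraries.

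Of the 8 interstitial collagens 7 were called higher over both runs, with wide spreads between libraries. Each of the 7 was called in the earlier run alone and none in the later run alone. Col1a1 had 0.166 to 96.6 CPM (median 5.89) in DOX β and 0.0353 to 10.4 CPM (median 1.32) in CTR β libraries, and the groups overlapped over nearly the whole CTR range (2.30 ± 0.64, edgeR adjusted p = 0.00586). By run, DOX β libraries had 7.92 to 96.6 CPM and CTR β libraries 1.28 to 5.94 CPM in the earlier run, without overlap. In the later run DOX β libraries had 0.166 to 10.0 CPM and CTR β libraries 0.0353 to 10.4 CPM, with full overlap. Col3a1, the collagen of pliable tissue, ran from 0.0389 to 162 CPM in DOX β and from 0.106 to 21.8 CPM in CTR β libraries (1.78 ± 0.70, edgeR adjusted p = 0.0418), and lost its call when any 1 of 16 of the 24 libraries was left out. Col1a2 had 0.195 to 94.4 CPM (median 7.25) in DOX β and 0.0706 to 9.95 CPM (median 2.18) in CTR β libraries (1.95 ± 0.62). The type V chains, which help to start fibrils, were lower in level: Col5a1 had medians of 0.965 CPM in DOX β and 0.179 CPM in CTR β libraries (2.19 ± 0.70), and Col5a2 of 1.42 CPM in DOX β and 0.396 CPM in CTR β libraries (1.97 ± 0.60). Of the type VI chains, Col6a1 had medians of 2.11 CPM in DOX β and 0.667 CPM in CTR β libraries (1.95 ± 0.71). Col6a2 had 0 to 24.5 CPM (median 2.22) in DOX β and 0 to 3.79 CPM (median 0.437) in CTR β libraries (2.44 ± 0.68). DOX was higher at 6 of 6 times for each of the 7 called collagens, by the mean of the 2 libraries, and the groups overlapped for each. Between libraries of the same time and replicate number, DOX was higher in 10 of 12 comparisons, or 11 for Col5a2. At ZT4 the DOX mean of Col3a1 rested on 1 library, with 162 and 0.416 CPM in DOX and 9.56 and 21.8 CPM in CTR. The uncalled Dcn, Lum, Lama2, Lamb1, Timp1 and Timp3 were also higher at 6 of 6 times. The share of all genes was not computed. The call of Col6a1 was lost when any 1 of 5 libraries was left out, and that of Col1a2 without DOX ZT16 replicate 2. Col6a3, the third chain of type VI collagen, was the exception with medians of 2.15 CPM in DOX β and 4.07 CPM in CTR β libraries (-0.74 ± 0.48, edgeR adjusted p = 0.217).

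**Figure D4:**
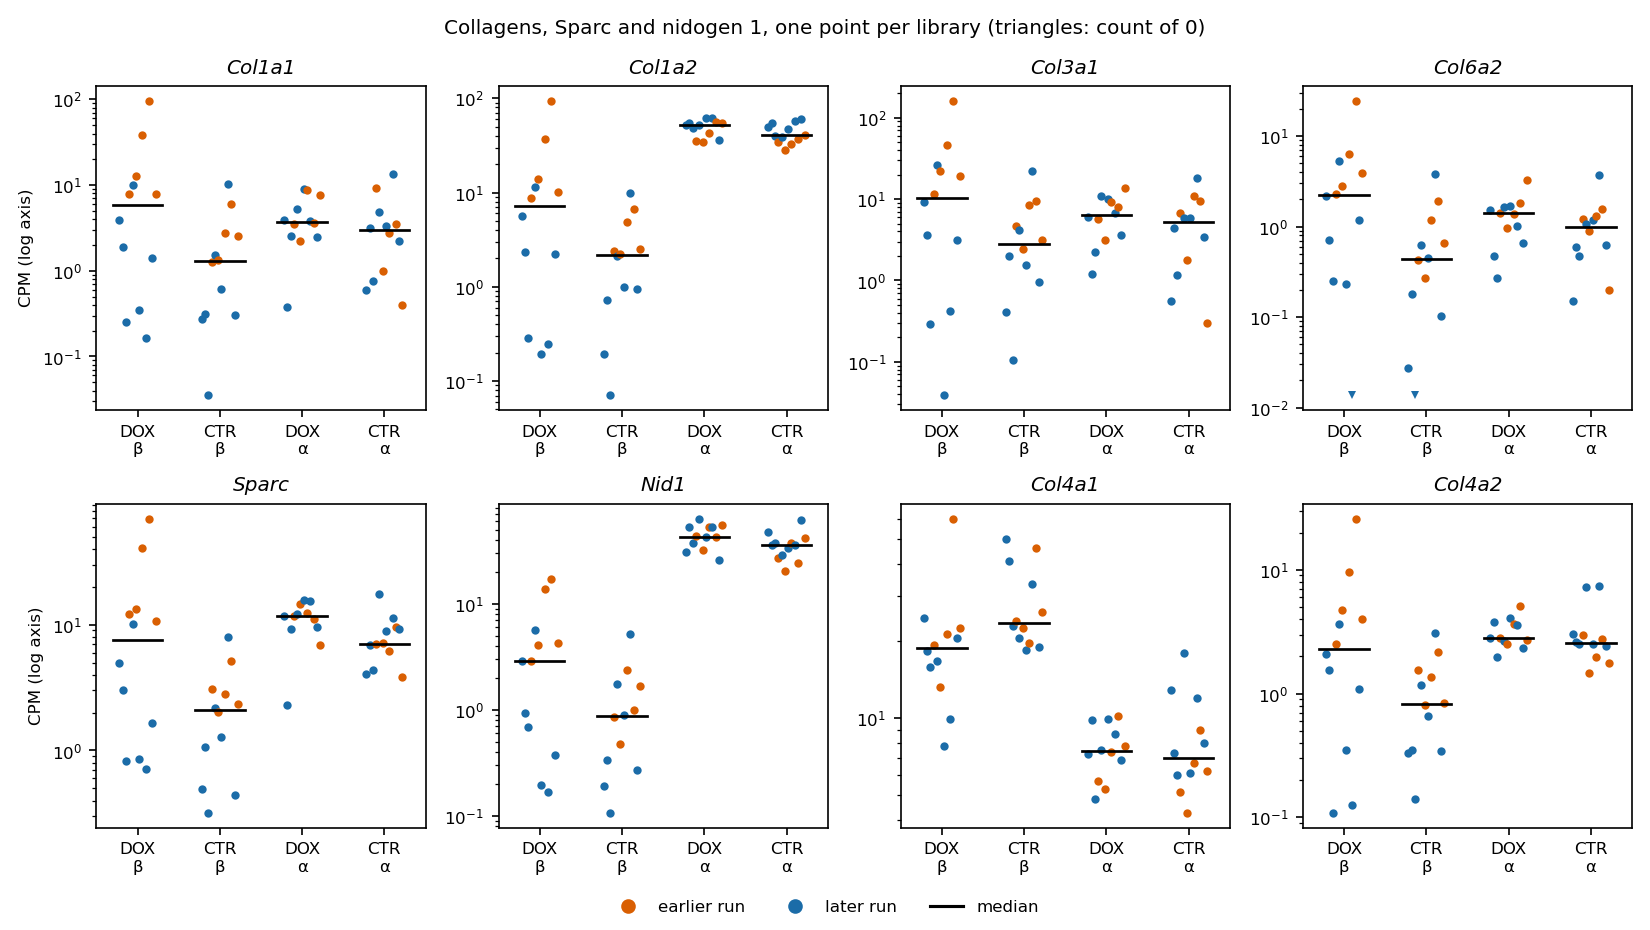
CPM on a log axis in every library of DOX β, CTR β, DOX α and CTR α cells for Col1a1, Col1a2, Col3a1, Col6a2, Sparc, Nid1, Col4a1 and Col4a2, with the median as a bar, the earlier run in orange, the later in blue and a count of 0 as a triangle at the base. In DOX β cells the orange points of Col1a1, 7.92 to 96.6 CPM, lie above most blue ones, while Col1a2 and Nid1 form narrow bands in α cells.

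Of the mesenchymal matrix genes, Sparc, which encodes a collagen-binding protein, and Pdgfrb, the receptor that marks pericytes, were called. Sparc had 0.707 to 69.6 CPM (median 7.52) in DOX β and 0.318 to 7.99 CPM (median 2.11) in CTR β libraries, and 6 DOX libraries lay above all CTR ones (1.96 ± 0.50, edgeR adjusted p = 0.00309). Pdgfrb had 0.108 to 5.17 CPM (median 0.433) in DOX β and 0.0353 to 0.513 CPM (median 0.179) in CTR β libraries (1.42 ± 0.42, edgeR adjusted p = 0.00865), and was called in neither run alone. The proteoglycans Dcn (0.89 ± 0.69) and Lum (1.52 ± 0.80), fibronectin (Fn1, 0.62 ± 0.61) and the protease inhibitors Timp1 (0.95 ± 0.51) and Timp3 (0.998 ± 0.52) were not called. Exons of Timp3 overlap the opposite gene Syn3 over 21.28% of their length.

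The summed CPM of the 10 fibroblast-type markers had the higher median in DOX β libraries in both runs. In the earlier run it was 5.45 to 40.5 (median 7.46) in DOX β and 2.77 to 5.43 (median 4.01) in CTR β libraries, without overlap. In the later run it was 0.749 to 8.11 (median 4.34) in DOX β and 1.66 to 5.89 (median 2.59) in CTR β libraries, with overlap. Over both runs 5 of the 10 were tested and none was called in edgeR (1 at an unadjusted p under 0.05), and in the earlier run alone 3 of 5 tested were higher. Pdgfra, a marker of fibroblasts, had a median of 0.336 CPM in DOX β and 0.0894 CPM in CTR β libraries, and no marker was at 0 in all libraries of a group. With the mean log2 CPM of these markers as a further term, a fit chosen after the data were seen, 9 genes were called higher (Lama5, Itgb1, Itgb5, Itga5, Itga1, Nid2, Hspg2, Sparc, Lamb2) and 3 lower (Col4a1, Itgav, Col6a3), with Lama5 at 3.20 and Itgb1 at 0.26. Of all genes, 6298 were called with that term and 7122 without it. None of the 7 interstitial collagens called without that term was called with it, and their log2 fold changes were then 0.31 to 0.95. The sum of these markers had the higher median in DOX β libraries, so that term can carry a share of the treatment. The part of such cells was not tested by this fit. Macrophage and dendritic cell markers were higher throughout, with 10 of 10 called in DOX β cells and a median of 2.14. With their mean as a further term, also chosen after the data were seen, 3 genes were called, Lama5 (3.19), Itga1 (1.17) and Itgb1 (0.25), and of all genes 3750 were called. These markers themselves differ between treatments, so that term also carries a share of the treatment.

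Taken run by run, more of these genes passed in the earlier run than in the later, although edgeR's test of the difference between runs called none of the 38. In the earlier run, with 5 DOX and 5 CTR β libraries, 25 of 34 genes tested were higher and none was lower, with a median of 2.33, where 32.4% of 14313 genes were called and 17.7% were higher. In the later run, with 7 DOX and 7 CTR β libraries, 6 of 30 genes tested were higher and 2 lower, with a median of 0.86, where 24.5% of 15282 genes were called, 13.9% higher and 10.6% lower. Called in both runs alone were 5 of the 30 genes tested in both, Lama5, Itgb1, Itga1, Itga5 and Nid2. The share of all genes called in both runs was not computed, so this count has no background beside it. In the earlier run Lama1 and Nid2 passed the count filter through their DOX libraries, as given above, so their calls there are no support on their own. Of the 30 genes tested in both, 23 had the larger log2 fold change in the earlier run. None of the 35 genes passed edgeR's test of the difference, later minus earlier, with adjusted p from 0.414 (Col18a1, -2.80 ± 0.85) upwards, in a test that called 7 of 15188 genes (0.0461%). At an unadjusted p under 0.05 there were 4 of the 35, and DESeq2 called 0.

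**Figure D5:**
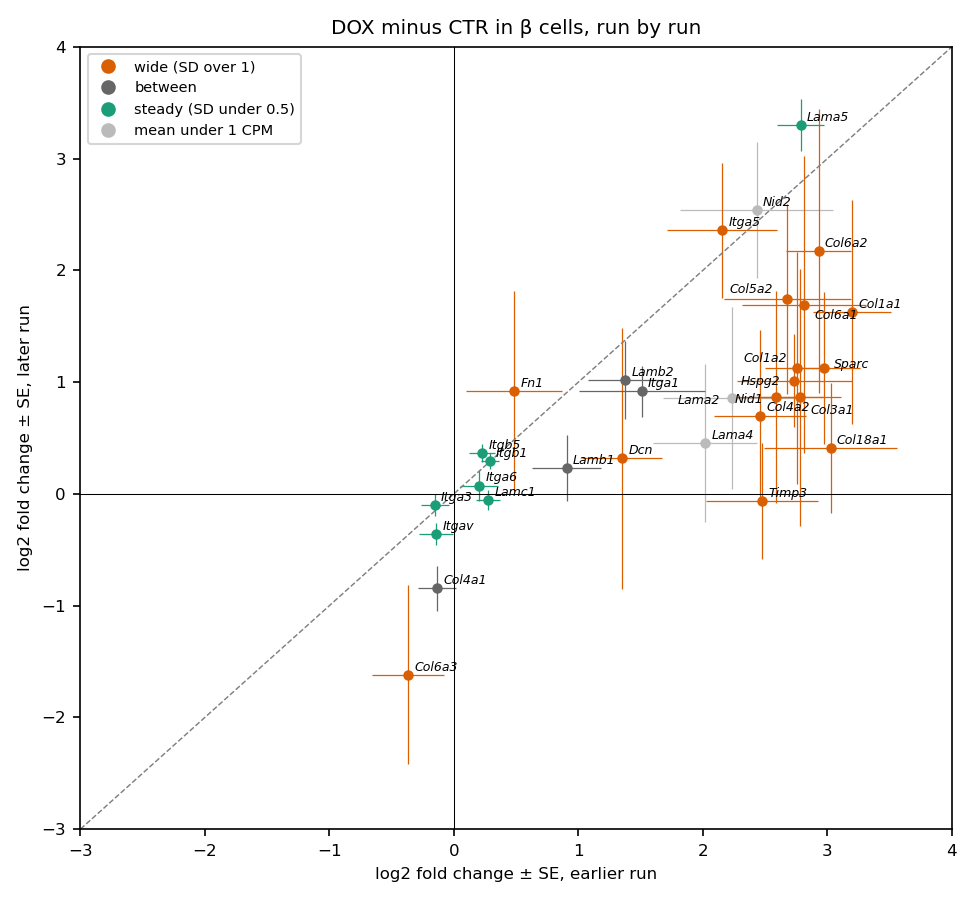
Log2 fold change with its SE, DOX minus CTR in β cells, in the earlier run (horizontal axis) and the later run (vertical axis) for the 30 genes tested in both, coloured by spread, with a dashed line of equal change. Lama5 lies at 2.79 and 3.30, and 23 of the 30 genes lie below the line. The SD behind the colours holds any difference between runs, so colour and distance from the line are not independent.

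In α cells, none of the 34 genes tested was called in DOX against CTR libraries, where 0.127% of 14932 genes were in edgeR. At an unadjusted p under 0.05 there were 6, and DESeq2 called 0. Of the 34, 27 had a positive log2 fold change, with a median of 0.25, against -0.0017 for all genes. Itgb1 had 274 to 392 CPM (median 345) in DOX α and 262 to 373 CPM (median 349) in CTR α libraries (0.01 ± 0.05, edgeR adjusted p = 0.987). Within the earlier run 2 genes were higher, Nid1 and Sparc, where 0.943% of 14003 genes were called. Nid1 then had 32.1 to 55.3 CPM in DOX α and 20.4 to 41.5 CPM in CTR α libraries (0.60 ± 0.08, edgeR adjusted p = 0.00144), and Sparc 6.87 to 14.6 CPM in DOX α and 3.81 to 9.63 CPM in CTR α libraries (0.76 ± 0.14, edgeR adjusted p = 0.0232). In the later run alone no gene was called in edgeR, among these or among all 15153 genes tested (0%), and 1 of 34 of these genes had an unadjusted p under 0.05.

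The effect of doxycycline differed between β and α cells for 12 of the 38 genes, which were all tested over the 48 libraries, with 11 larger and 1 smaller in β cells, where 25.5% of 16207 genes were called, 12.7% larger and 12.8% smaller. Beside Lama5, the integrin chains Itgb5 (0.45 ± 0.09, edgeR adjusted p = 0.000411), Itgb1 (0.26 ± 0.06, edgeR adjusted p = 0.00306) and Itga5 (2.76 ± 0.84, edgeR adjusted p = 0.0137) had the larger effect in β cells, and Itgav the smaller (-0.37 ± 0.11, edgeR adjusted p = 0.0134). Itga5 was at 0 in 3 of 12 DOX α and in 5 of 12 CTR α libraries, so its α cell effect rests on few counts. Lama1 (2.90 ± 0.73), Nid2 (1.90 ± 0.58), Lamb2 (1.24 ± 0.40), Hspg2 (1.43 ± 0.50) and Col4a2 (1.48 ± 0.57) followed. Of the genes typical of mesenchymal cells, Col1a2 (1.75 ± 0.58, edgeR adjusted p = 0.025) and Sparc (1.45 ± 0.54, edgeR adjusted p = 0.0449) passed, and the other 7 interstitial collagens did not. Without DOX β ZT16 replicate 2 the counts were 6 larger and 1 smaller, without CTR β ZT16 replicate 1 or without CTR α ZT16 replicate 2 they held 7 larger, and in the later run alone, where 7.58% of 16392 genes were called, 2 larger and 1 smaller. The call of Col4a2 was lost when any 1 of 34 of the 48 libraries was left out, and that of Sparc when any 1 of 29 was.

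Of these genes, 1 was called rhythmic, in 1 condition. For the fit of a 24 h cosine, 18 of the 38 passed the filter in DOX β, 13 in CTR β, 25 in DOX α and 20 in CTR α libraries. The gene called was Col1a2 in CTR α cells, with an amplitude of 0.27 on the log2 scale and a peak at ZT 4.22 (edgeR adjusted p = 0.0343), where 4.49% of 13349 genes were called, and it lost the call when any 1 of 8 of the 12 libraries was left out. Its CTR α values in the later run were 54.6 CPM or 49.9 CPM at ZT0, 57.7 CPM at ZT4, 60.1 CPM at ZT8 and 39.0 CPM at ZT16. In the other conditions edgeR called 0 of the 38, with 1 in DOX β, 1 in CTR β and 3 in DOX α cells at an unadjusted p under 0.05, and DESeq2 called 1 in DOX β, 1 in CTR β and 0 in DOX α cells. Shares of all genes called in these conditions were 11.6% in DOX β, 2.17% in CTR β and 2.82% in DOX α libraries. Col4a1 came closest in CTR β cells, with an amplitude of 0.56 and a peak at ZT 2.24 (edgeR adjusted p = 0.0732). Its 2 CTR β libraries of ZT0 had 50.1 and 41.0 CPM, and those of ZT20 had 19.7 and 18.5 CPM. Enzymes that modify collagen before secretion were called in several conditions. The prolyl 4-hydroxylase chain P4ha2 peaked at ZT 18.2 in CTR β, ZT 18.0 in DOX α and ZT 17.5 in CTR α libraries, and P4ha1 at ZT 20.9 in DOX β, ZT 19.0 in DOX α and ZT 18.8 in CTR α libraries. Whether rhythms differed between conditions was not tested here.

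Counts for lists of genes that work with the matrix stand against 46.9% of all genes called in DOX against CTR β cells, 23.8% higher and 23.1% lower. Of 10 tested genes for collagen folding and cross-linking, 7 were higher in DOX β cells and none lower, among them the prolyl 3-hydroxylase P3h1 (0.92 ± 0.11), P4ha2 (0.62 ± 0.08) and the lysyl hydroxylase Plod3 (0.62 ± 0.08). P3h1 had 28.0 to 71.1 CPM in DOX β and 15.6 to 38.9 CPM in CTR β libraries (edgeR adjusted p = 1.04e-06). Of 15 genes of the integrin adhesion complex, 5 were higher and 3 lower, near the shares of all genes, with zyxin (Zyx, 0.91 ± 0.11) and vinculin (Vcl, 0.59 ± 0.10), which sit at the ends of actin fibres, and the kinase Src (0.23 ± 0.05) at the lowest p. Of 10 other laminin chains and basement membrane receptors, 5 were higher and 2 lower, with the tetraspanin Cd151 (0.52 ± 0.07), which binds laminin receptors, the hyaluronan receptor Cd44 (0.90 ± 0.14) and the syndecan Sdc1 (1.06 ± 0.17) higher. The collagen receptor Ddr1 was lower, with 127 to 240 CPM in DOX β and 178 to 344 CPM in CTR β libraries (-0.46 ± 0.08, edgeR adjusted p = 5.64e-05).

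Among proteases and other inhibitors, 6 of 11 tested were higher and none lower, beside the same 23.8% and 23.1% of all genes. Mmp14, a membrane-bound collagenase, had 0.868 to 6.93 CPM (median 3.92) in DOX β and 0.256 to 1.28 CPM (median 0.989) in CTR β libraries (2.12 ± 0.30, edgeR adjusted p = 9.66e-06), and the gelatinase Mmp2 (2.13 ± 0.47) and the inhibitor Timp2 (0.84 ± 0.19) followed. Of 8 tested matricellular proteins 7 were higher, with Tgfbi (2.43 ± 0.37), Spp1 (1.41 ± 0.24) and Thbs1 (1.80 ± 0.34) at the lowest p. Of 14 other integrin chains tested, 8 were higher and 1 lower, Itga2. The 3 with the lowest p, Itgb2 (2.11 ± 0.38), Itgax (2.01 ± 0.37) and Itgal (1.78 ± 0.37), are chains of leukocyte integrins, and they moved beside the macrophage and dendritic cell markers given above, whose part in their change was not tested.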

How the data were processed

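PolyA+ RNA (300 ng per library) was made into libraries with TruSeq RNA v2 and sequenced on Illumina HiSeq instruments of 2 models, per the labels' protocols. The authors deposited estimated counts per gene in 1 table per sequencing run. GRCm38, bcl2fastq and STAR are named, without versions, in the submitters' processing notes, and the counting program is not given in the sources used here. Of nonzero values, 49.4 to 73.1% per library were whole (tolerance 1e-06), and of whole values up to 20, 99.7 to 100% were even. Low counts thus grow in steps of 2, which makes the limit given for a count of 0 too low. The deposited RPKM tables were scaled per run and were not used.

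Counts were rounded. edgeR 4.0.16 (R 4.3.3) was used with TMM scaling, filterByExpr by compared groups (minimum count 10, total 15), the quasi-likelihood F test and Benjamini-Hochberg adjustment over all genes (threshold 0.05). Terms were treatment or cell type, time and run, over the libraries of the groups compared. The difference between cell types was an interaction over all 48 libraries, and rhythms were tested with a 24 h cosine pair. Residual SDs used log2 CPM with a prior count of 2. The fits were tested on simulated counts. Alternatives were DESeq2 1.42.0, RLE factors, no filter, halved counts, no run term, a replicate block, each run alone, each library left out, a prior count of 0.5, and marker terms added after the data were seen. Exon overlaps are from GENCODE M21.

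The 38 genes and all lists were chosen with earlier results of these data known. Every gene of the 38 is accounted for, in full where it was called in DOX β cells with 1 direction in both runs. Of each other list up to 3 genes with the lowest p are named. Lama1, Pdgfra, Itga2, Ddr1, Pelo and Rtraf were named after their values were seen. Some genes of the α cell marker list are not reported here.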

Additional observations from a re-analysis of the deposited data

Results flagged for a closer look

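For 12 of the 38 genes the effect of doxycycline in β cells differed from that in α cells in edgeR's test of the difference over the 48 libraries. The differences, β minus α on the log2 scale, were 2.638 for Lama5, 0.4454 for Itgb5, 0.256 for Itgb1, 2.899 for Lama1, -0.3671 for Itgav and 2.756 for Itga5. They were 1.899 for Nid2, 1.242 for Lamb2, 1.746 for Col1a2, 1.431 for Hspg2, 1.452 for Sparc and 1.484 for Col4a2. Lama5, Itgb5, Itgb1, Lama1, Itgav and Nid2 were called without any 1 of the 48 libraries, and the other 6 lost the call without at least 1 of them. Lama1 rests on low counts, with at most 1.60 CPM in DOX β, 0.426 CPM in CTR β, 0.692 CPM in DOX α and 0.823 CPM in CTR α libraries. Its DOX β values were 0.835 to 1.60 CPM in the earlier run and 0 to 0.261 CPM in the later. Leaving out 1 library cannot show how far the Lama1 call rests on the earlier run.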

How the results depend on the processing

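In DOX against CTR β cells, 23 of the 38 genes were called, with counts of 23 by RLE factors, 24 by DESeq2, 23 without a filter, 21 with halved counts and 24 without the run term. Counts that moved by over 1.5 times were as follows, and the cause was not tested. In β cells, all genes called came to 4638 in the earlier run, 3747 in the later run and 3750 with the macrophage term, against 7122. Of the 38 genes, 8 (6 higher) were called in the later run, 12 (9 higher) with the fibroblast term and 3 (3 higher) with the macrophage term. In α cells, all genes called were 19, but 125 with DESeq2, 56 without a filter, 12 without the run term, 0 in the later run and 132 in the earlier, where 2 of the 38 (2 higher) were called. For the β minus α effect, all genes called were 4126, but 2139 in the earlier and 1243 in the later run, with 3 of the 38 (2 larger) in the later run. In control β against α cells the earlier run reversed Lamb2 (0.27) and Col1a1 (0.12). The difference between runs called 7 genes in β and 17 in α cells, with 85 and 52 by DESeq2 and 33 and 39 without a filter. Rhythmic genes by DESeq2 were 3014 in DOX β, 1317 in CTR β, 1178 in DOX α and 1518 in CTR α cells, against 1576, 288, 375 and 600, with 1 of the 38 in DOX β and 1 in CTR β cells. Without the run term they were 328 in DOX β, 166 in DOX α and 344 in CTR α cells (0 of the 38), and without a filter 831 in DOX β cells.

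Leaving out each library in turn gave 6731 to 7207 genes in β cells, with 17 to 26 of the 38 (15 to 24 higher), and 9 to 35 genes in α cells, with 0 of the 38. It gave 3789 to 4289 genes for the β minus α effect, with 7 to 17 of the 38 (6 to 16 larger), and 10511 to 10759 genes between control cell types, with 18 to 23 of the 38. The difference between runs gave 0 to 22 genes in β and 6 to 31 in α cells. Rhythms gave 112 to 2317 genes in DOX β (0 to 1 of the 38), 20 to 893 in CTR β (0 to 1), 41 to 560 in DOX α (0) and 179 to 1141 in CTR α cells (0 to 2).

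Replicate numbers were not taken as pairs of DOX and CTR libraries. Deviations of same-numbered DOX and CTR libraries of a time correlated from -0.471 to 0.448 in β cells (over 0.1 in 4 of 6 pairs). In α cells they correlated from -0.577 to 0.398 (5 of 6). From ZT4 on, same-numbered libraries also share the sequencing run, so correlations at those times cannot tell pairing from a shared run. Only at ZT0 were all libraries from the later run, and the correlation there was -0.471 in β and -0.577 in α cells. Whether the numbers mark pairs is thus not decided. Such a correlation between α and β libraries was not computed. With the replicate block 22 of the 38 (20 higher) were called in β cells, 7 genes in α cells, 8 of the 38 (7 larger) for the β minus α effect, and 688 rhythmic genes in DOX β cells. The calls that ended with the block were Lama4 (edgeR adjusted p = 0.0782) and Col3a1 (0.0508) in β cells, and Itga5 (0.0554), Sparc (0.0597), Hspg2 (0.0626) and Col4a2 (0.082) for the β minus α effect. With the ZT0 numbers crossed in the block, 22 of the 38 were called in β cells and 42 genes in α cells. Genes under about 1 CPM are limited by depth, above all in the earlier run.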
